A study of Homo sapiens with 20 samples.

Results

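The genes described here are 10 genes of the transforming growth factor beta (TGF-beta) pathway. They are the ligands TGFB1, TGFB2 and TGFB3, the receptors TGFBR1 and TGFBR2, the signal transducer SMAD3, the inhibitor SMAD7, and the target genes PMEPA1, THBS1 and TGFBI. The list was chosen by the coculture and control levels of these same libraries, after lower THBS1 and PMEPA1 had been seen in them, so the levels of the 10 genes are given as a description, with no p-value. The genes were taken by symbol from a gene table of 54261 rows, and all 10 were found and passed the filter on low counts, as did 15629 rows in all. A further 152 genes of the pathway, in 7 lists by role, and 29 mature miRNAs listed for the pathway were tested gene by gene. The miRNA list includes miR-486-3p, which the study's title names.

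The cells were TPC-1, an established line from a human papillary thyroid carcinoma. The coculture group was kept for 48 h with PMN-MDSCs, polymorphonuclear myeloid-derived suppressor cells, which are immature neutrophil-like cells that restrain T cells. The control group was TPC-1 cells without them, and no other treatment is labelled for either group. RNA-seq and miRNA-seq each had 6 coculture and 4 control libraries. The labels do not say how the cells shared the culture or whether the myeloid cells were taken out before RNA extraction. They also do not say that replicates were separate cultures, so a p-value measures only the spread between these libraries.

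RNA-seq libraries held 40237801 to 48197608 counts and miRNA-seq libraries 3971608 to 5895539. Coculture 1 and 2 stood apart from the rest in a principal component analysis of RNA-seq, where component 1 (39.3% of the variance) held them at -66.1 and -60.6, with the other 8 libraries at 0.908 to 31.8. Named fold changes that move by over 1.5 times without this pair are therefore also given without it. Myeloid transcripts were present in the coculture libraries. The 20 myeloid markers summed to 28.3 to 59.0 CPM, counts scaled to the library total, in coculture, against 2.24 to 3.06 CPM in controls. The 12 that passed the filter on low counts were all higher in coculture (edgeR), beside 1.14% of all genes tested. Some of them, such as CD53, TYROBP and MRC1, had 0 counts in controls and so passed the filter only through coculture. Nothing is read from that count of 12. AIF1, FCGR3B, CXCR2 and ELANE, which include defining neutrophil markers, had no count in any library, and 11 of the 20 had none in the controls. Of the others, S100A9 had 235 counts over the coculture libraries and 1 over the controls. S100A8, CSF3R, MPO and CEACAM8 had 53, 11, 10 and 1 in coculture and 0 in controls. CD14 and CSF1R had 741 and 709 in coculture, against 15 and 87 in controls. The 7 fibroblast markers summed to 3.45 to 90.4 CPM in coculture, with a median of 5.57 CPM and the highest sum, mostly collagen transcripts, in coculture 1, against 3.78 to 7.22 CPM in controls. The 8 platelet markers summed to 0.168 to 0.978 CPM in coculture, against 0.0855 to 0.146 CPM in controls, with PF4, GP9 and GP6 at 0 throughout. PPBP had 62 counts over the coculture libraries and 0 over the controls, and GP1BA 51 and 7. TUBB1 had 17 and 5, ITGA2B 11 and 6, and TREML1 1 and 0. Endothelial markers summed to 0.238 to 1.22 CPM in coculture, against 0.113 to 0.717 CPM in controls. Of the thyroid markers, the transcription factor PAX8 averaged 625 ± 107 CPM in coculture and 508 ± 11.2 CPM in controls (SD, n = 6 and 4), while TSHR, the thyrotropin receptor, had 1 count over the coculture libraries and 0 over the controls. The epithelial keratin KRT8 was at 240 ± 22.4 CPM in coculture and 240 ± 28.6 CPM in controls, whereas the cadherin CDH1 had 5 counts over the coculture libraries and 0 over the controls. The part these other cell types play in the values below was not tested, and in RNA pooled from many cells, fewer cells and less RNA per cell cannot be told apart.

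TGF-beta ligands are secreted in a latent form and act once they are released from it. They bring together a type II receptor, TGFBR2, and a type I receptor, TGFBR1, which phosphorylates SMAD2 and SMAD3. With SMAD4 these enter the nucleus and switch on target genes, among them SMAD7, which feeds back on the receptor. In epithelial cells the pathway is known for restraining growth and for driving the epithelial-to-mesenchymal transition.

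Across all 10 genes, the target genes THBS1 and PMEPA1 were lower in every coculture library than in any control, and SMAD3 was higher in 5 of 6 coculture libraries than in any control. Of the ligands, TGFB1 was higher and TGFB2 lower than any control in 5 of 6 coculture libraries. TGFB3 and the 2 receptors differed less. In the fit over all genes, 6 of the 10 had a negative and 4 a positive log2 fold change, with a median of -0.14 beside 0.01 over all genes tested. Of the 10, 0 passed edgeR's adjusted threshold of 0.05 as higher and 2 as lower, beside 1.14% and 0.186% of all genes tested. The 2 were THBS1 and PMEPA1, the genes on which the list was chosen. THBS1 kept this pass under only 7 of 17 alternatives and PMEPA1 under 13. At an unadjusted p under 0.05 there were 2 higher and 3 lower, beside 6.07% and 3.58% of all genes. In the coculture libraries 2 of the 10 genes, again THBS1 and PMEPA1, lay wholly below the controls and 0 wholly above, beside 1.17% and 2.45% of all genes. Since the list was chosen on these libraries, nothing is read from any of these counts.

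**Figure D1:**
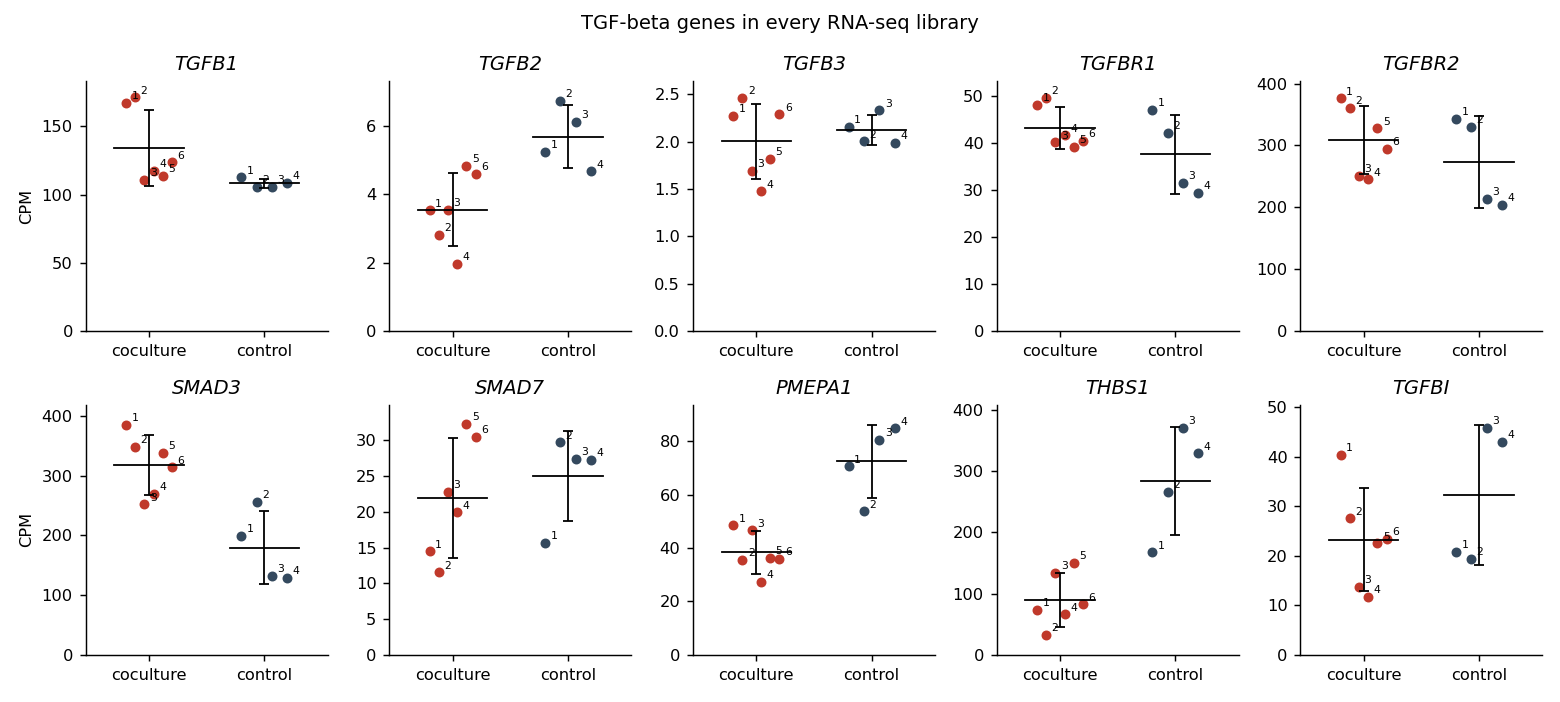
Level of each of the 10 genes in every RNA-seq library, in CPM on a linear axis from 0, coculture on the left and control on the right. Points are libraries with their replicate number, and bars are the mean and SD (n = 6 and 4). THBS1 and PMEPA1 are lower in all 6 coculture libraries than in any of the 4 controls, and controls 3 and 4 stand apart from controls 1 and 2 for TGFBR1, TGFBR2, SMAD3 and TGFBI.

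To compare levels between genes, counts were also scaled by gene length, as TPM. In coculture the receptor TGFBR2 stood at 117 ± 19.1 TPM, the ligand TGFB1 at 115 ± 20.7 TPM and SMAD3 at 113 ± 16.4 TPM, which do not differ beyond their spread. THBS1 at 27.8 ± 14.2, TGFBI at 18.3 ± 7.95, PMEPA1 at 17.3 ± 3.73, SMAD7 at 15.9 ± 6.28 and TGFBR1 at 14.7 ± 1.17 TPM followed, each within the spread of its neighbour. TGFB2 at 1.33 ± 0.418 and TGFB3 at 1.28 ± 0.227 TPM came last. The order differed in controls for THBS1, which at 88.7 ± 24.4 TPM stood next to TGFBR2 at 108 ± 34.7 and TGFB1 at 96.2 ± 7.33 TPM. SMAD3 followed in controls at 66.4 ± 24.7, PMEPA1 at 33.6 ± 5.42, TGFBI at 26.0 ± 10.3, SMAD7 at 18.5 ± 4.30 and TGFBR1 at 13.3 ± 3.69 TPM. TGFB2 at 2.19 ± 0.391 and TGFB3 at 1.41 ± 0.131 TPM were again the lowest.

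**Figure D2:**
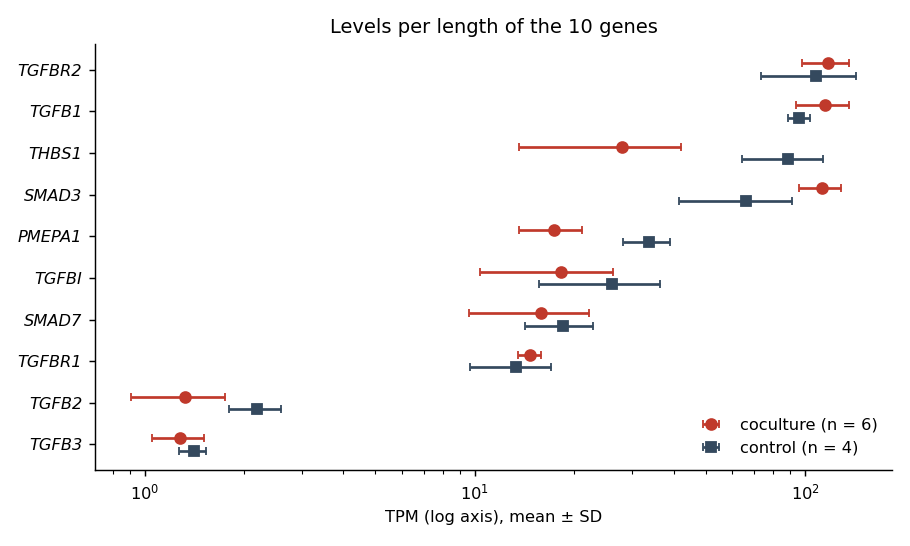
Mean level per length of the 10 genes in TPM, on a log axis, with SD bars. Coculture (circles, n = 6) is drawn above control (squares, n = 4) for each gene. THBS1 stands at 27.8 TPM in coculture and 88.7 TPM in controls, whereas TGFBR2, TGFB1, TGFBI, SMAD7, TGFBR1 and TGFB3 overlap in their SD bars.

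TGFB1 was by far the main ligand transcript. It made up 97.7 ± 0.585% of the TPM of the 3 ligands in coculture and 96.4 ± 0.451% in controls. TGFB1 (chromosome 19, 41330531 to 41353933, minus strand, GRCh38 as deposited) ran from 111 to 171 CPM in coculture, with a median of 121 CPM, against 113, 106, 106 and 109 CPM in controls. The highest values were in coculture 1 and 2, at 167 and 171 CPM, and 5 of 6 coculture libraries lay above all controls. Its log2 fold change was 0.31 ± 0.13 (SE), and 0.09 without coculture 1 and 2. TGFB1 is also made by many blood cells. The myeloid marker sums above were higher in coculture as well, and their part in the TGFB1 values was not tested.

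The other ligands were scarce. TGFB2 (chromosome 1, 218345334 to 218444619, plus strand) held 1.97 to 4.83 CPM in coculture, with a median of 3.54 CPM, against 5.23, 6.72, 6.11 and 4.68 CPM in controls. Only coculture 5 reached the control range, so 5 of 6 coculture libraries lay below all controls. The log2 fold change of TGFB2 was -0.68 ± 0.23, and its share of the ligand TPM was 0.702 to 1.79% in coculture against 1.81 to 2.65% in controls. TGFB3 (chromosome 14, 75958097 to 75982022, minus strand) was at 1.47 to 2.46 CPM in coculture and 1.99 to 2.33 CPM in controls, with a log2 fold change of -0.08 ± 0.19, and -0.23 without coculture 1 and 2. These groups overlapped.

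Among the receptors, TGFBR2 (chromosome 3, 30606490 to 30694142, plus strand), the ligand-binding kinase, was at 245 to 376 CPM in coculture, with a median of 311 CPM, against 343, 331, 214 and 204 CPM in controls. TGFBR1 (chromosome 9, 99104038 to 99154192, plus strand), the kinase that phosphorylates SMADs, was at 39.2 to 49.7 CPM in coculture, with a median of 41.1 CPM, against 47.1, 42.3, 31.6 and 29.4 CPM in controls. For both, controls 1 and 2 lay within the coculture range and controls 3 and 4 below it. The log2 fold changes were 0.18 ± 0.18 for TGFBR2 and 0.20 ± 0.14 for TGFBR1. Without coculture 1 and 2 they were 0.022 for TGFBR2 and 0.09 for TGFBR1. The receptors kept their proportion, with a TGFBR2 to TGFBR1 ratio by TPM of 7.98 ± 1.04 in coculture and 8.04 ± 0.527 in controls.

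SMAD3 (chromosome 15, 67065698 to 67195195, plus strand), the SMAD that binds DNA downstream of TGF-beta receptors, ran from 252 to 386 CPM in coculture, with a median of 327 CPM, against 200, 256, 133 and 129 CPM in controls. Only coculture 3, at 252 CPM, fell within the control range. The log2 fold change was 0.83 ± 0.19, and 0.70 without coculture 1 and 2. SMAD7 (chromosome 18, 48919853 to 48950711, minus strand), the inhibitory SMAD and itself a target, was at 11.6 to 32.3 CPM in coculture, with a median of 21.4 CPM, against 15.7, 29.7, 27.4 and 27.3 CPM in controls. Coculture 1 and 2 held the lowest SMAD7 among the coculture libraries, at 14.5 and 11.6 CPM, and coculture 5 and 6 the highest. Its log2 fold change was -0.19 ± 0.28, and 0.06 without coculture 1 and 2, so no direction is given. The SMAD3 to SMAD7 ratio by TPM was 5.08 to 14.8 in coculture and 2.33 to 6.27 in controls, and the groups overlapped.

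The 3 target genes did not behave alike. THBS1 (chromosome 15, 39581079 to 39598918, plus strand) encodes thrombospondin 1, a matrix glycoprotein that can release TGF-beta from its latent complex. It was at 32.5 to 150 CPM in coculture, with a median of 78.0 CPM, against 167, 266, 371 and 329 CPM in controls. The lowest was coculture 2 and the highest coculture 5, and no coculture library reached the lowest control. THBS1 averaged 89.8 ± 44.1 CPM in coculture and 283 ± 88.5 CPM in controls, a log2 fold change of -1.66 ± 0.35. It also varied most within coculture, where its highest library was 4.63 times its lowest. Without coculture 1 and 2 the log2 fold change was -1.40.

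PMEPA1 (chromosome 20, 57648392 to 57711536, minus strand) encodes a membrane protein induced by TGF-beta that limits SMAD signalling. It was at 27.3 to 48.5 CPM in coculture, with a median of 36.1 CPM, against 70.6, 53.8, 80.5 and 84.8 CPM in controls. The gap between the groups was narrow, between coculture 1 and control 2. PMEPA1 averaged 38.4 ± 7.91 CPM in coculture and 72.4 ± 13.8 CPM in controls, a log2 fold change of -0.92 ± 0.16, and -0.999 without coculture 1 and 2. TGFBI (chromosome 5, 136028895 to 136063818, plus strand), a matrix adhesion protein named for its induction by TGF-beta, showed no such separation. It was at 11.7 to 40.4 CPM in coculture, with a median of 23.0 CPM, against 20.9, 19.4, 45.8 and 43.0 CPM in controls. The coculture range of TGFBI spans controls 1 and 2, and only controls 3 and 4 lie above it. The log2 fold change was -0.47 ± 0.34, and -0.87 without coculture 1 and 2.

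Promoter sequences are shown for THBS1 and PMEPA1 because these genes were lower together. They come from RefSeq (GRCh38.p14), 250 bases before to 50 after an annotated start, and the capitals mark CAGAC, a short form of the element that SMAD3 and SMAD4 bind, searched as CAGAC or its reverse complement GTCTG on both strands. The THBS1 window lies at chr15:39580829-39581128, plus strand, and the PMEPA1 window at chr20:57711423-57711722, minus strand, the most upstream of its 4 annotated starts.
THBS1: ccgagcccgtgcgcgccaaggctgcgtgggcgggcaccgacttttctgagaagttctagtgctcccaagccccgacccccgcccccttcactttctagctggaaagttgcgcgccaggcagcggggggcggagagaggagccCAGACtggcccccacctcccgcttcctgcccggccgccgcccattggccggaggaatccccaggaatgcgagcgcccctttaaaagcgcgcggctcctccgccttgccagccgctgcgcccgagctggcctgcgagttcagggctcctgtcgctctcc
PMEPA1: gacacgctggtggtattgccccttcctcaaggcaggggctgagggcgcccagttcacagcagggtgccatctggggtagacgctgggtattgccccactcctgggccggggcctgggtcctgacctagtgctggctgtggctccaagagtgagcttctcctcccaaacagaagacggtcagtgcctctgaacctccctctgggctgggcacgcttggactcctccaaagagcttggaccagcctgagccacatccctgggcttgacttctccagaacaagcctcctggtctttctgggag
The THBS1 window holds 1 match, 108 bases before the start, and the PMEPA1 window none, while the other 3 PMEPA1 windows hold 1, 2 and 1. The 10 genes matched 28 windows, of which 15 (53.6%) held the motif, beside 45.3% of the 35116 RefSeq windows. This is a description of letters in these windows, and no binding was measured.

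Likeness to THBS1 and PMEPA1 was measured as the root-mean-square (RMS) difference between profiles over the 10 RNA-seq libraries, each centred on its mean on the log2(CPM + 0.5) scale, among 10350 genes with a mean of at least 5 CPM. The profile of THBS1 itself had an RMS deviation of 1.06. Nearest to it were ZNF114, a zinc finger protein (RMS difference 0.474), PLPP4, a phospholipid phosphatase (0.602), and the noncoding RNA LINC00472 (0.613). ZNF114 averaged 21.5 ± 10.8 CPM in coculture and 41.7 ± 10.8 CPM in controls. The profile of PMEPA1 had an RMS deviation of 0.520. Nearest to it were KCNIP1, a potassium channel interacting protein (0.211), RHBDL3, a rhomboid family protein (0.215), and CABLES1, a CDK5 and ABL1 substrate (0.234). RHBDL3 averaged 16.3 ± 3.99 CPM in coculture and 36.2 ± 2.12 CPM in controls. These genes were picked for their profile, so their differences are not tested here.

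Of the 152 further genes, 112 passed the filter, and 2 were higher, 1 was lower and 109 did not pass (edgeR quasi-likelihood test, adjusted over all genes), beside 1.14% higher and 0.186% lower of all genes tested. At an unadjusted p under 0.05 they were 12 higher and 6 lower, beside 6.07% and 3.58%. Nothing particular to the list is read from these counts. The same 3 genes were called by limma-voom, and DESeq2 called 5 higher and 3 lower. The log2 fold change was positive for 57 and negative for 55, with a median of 0.01, the same to 2 decimals as over all genes.

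**Figure D3:**
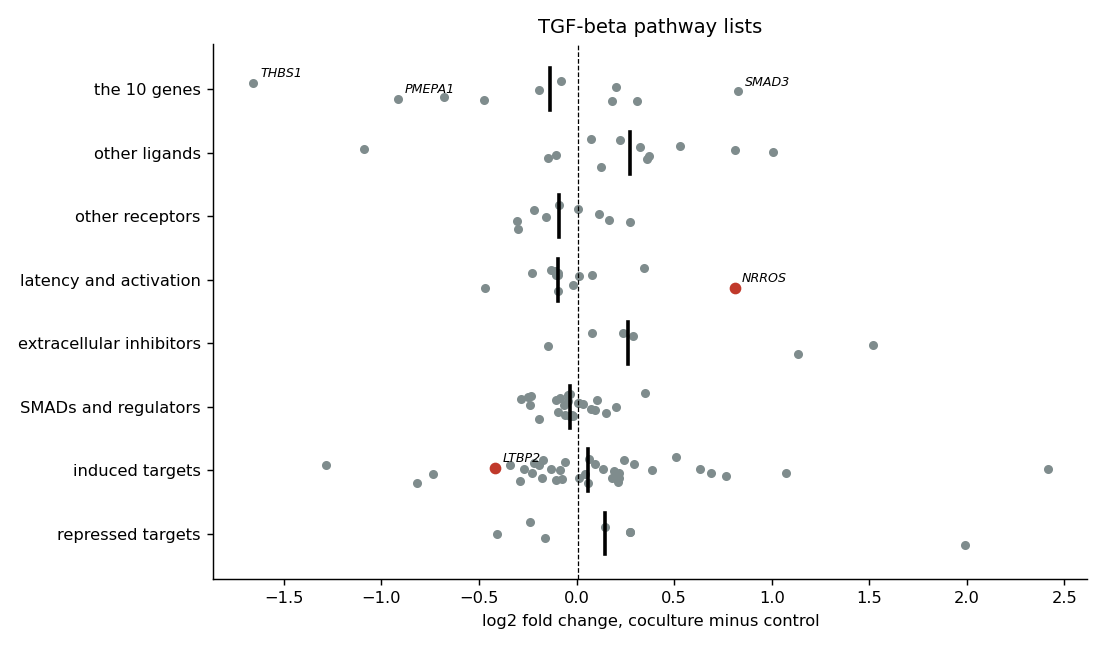
Log2 fold change, coculture minus control, of tested genes of each list (points, 37 of 39 for the induced targets) with the median over all tested genes of the list (black bar). Red points passed the adjusted threshold of 0.05 among the further lists. NRROS is higher and LTBP2 lower, and the 10 genes in the top row are shown as a description.

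Of 30 other ligands of the family, 12 could be tested and 0 passed in either direction, with a median log2 fold change of 0.27. At an unadjusted p under 0.05 there was 1 higher and 0 lower. BMP6, a bone morphogenetic protein, was at 20.7 ± 11.7 CPM in coculture and 11.8 ± 1.87 CPM in controls, with 34.5 and 37.0 CPM in coculture 1 and 2. Its log2 fold change of 0.81 ± 0.35 had an edgeR adjusted p of 0.473 and was 0.15 without that pair. BMP2, GDF6 and GDF9, the other named ligands, were at log2 fold changes of 1.01 ± 0.50, -1.09 ± 0.54 and 0.33 ± 0.19. Each of these was below 3 CPM in every library, and GDF6 was at -1.86 without that pair.

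Of 13 other receptors, 9 could be tested and 0 passed, with 0 higher and 2 lower at an unadjusted p under 0.05 and a median of -0.09. ENG, the coreceptor endoglin, was at 484 to 581 CPM in coculture and 598 to 712 CPM in controls, so every coculture library lay below every control. Its log2 fold change of -0.30 ± 0.08 had an edgeR adjusted p of 0.119. BMPR2, a type II receptor for bone morphogenetic proteins, was at -0.30 ± 0.12 (adjusted p = 0.436 with edgeR). The coreceptor TGFBR3 at 0.28 ± 0.21 and the type I receptor BMPR1A at -0.16 ± 0.12 also missed the threshold, and TGFBR3 was at 0.10 without coculture 1 and 2.

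Of 14 genes that keep TGF-beta latent or activate it, 13 were tested, 1 was higher and 0 lower, with a median of -0.09. The higher gene was NRROS, which holds latent TGF-beta at the cell surface and is known from macrophages and microglia. NRROS was at 24.1 to 39.7 CPM in coculture, with a median of 33.5 CPM, against 17.8, 21.5, 17.4 and 18.3 CPM in controls. The groups did not overlap, and its log2 fold change was 0.81 ± 0.13 (edgeR adjusted p = 0.00761), higher in 6 of 6 coculture libraries. The call held without any single library and was lost with the replicate number as a block (adjusted p = 0.0872). The myeloid marker sums were also higher in coculture, at 28.3 to 59.0 CPM, against 2.24 to 3.06 CPM in controls. Their part in NRROS was not tested. LTBP4, a latent TGF-beta binding protein, was at 231 ± 46.6 CPM in coculture and 181 ± 25.5 CPM in controls, with a log2 fold change of 0.35 ± 0.15 (adjusted p = 0.469 with edgeR). Coculture 1 and 2 held the highest LTBP4, at 269.6 and 299.7 CPM, and without them its log2 fold change was 0.15. The activating proteases MMP14 at -0.11 ± 0.07 and FURIN at -0.13 ± 0.13 did not pass, and FURIN was at -0.33 without that pair.

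Of 9 extracellular inhibitors of the family, 6 were tested and 0 passed, with 1 higher and 0 lower at an unadjusted p under 0.05 and a median of 0.26. NOG, the secreted antagonist noggin, was at 4.32 to 12.6 CPM in coculture and 2.44 to 4.62 CPM in controls. Its log2 fold change of 1.14 ± 0.34 had an edgeR adjusted p of 0.189 and was 0.64 without coculture 1 and 2. FST, FSTL1 and CHRD, the antagonists follistatin, follistatin-like 1 and chordin, were at 1.52 ± 0.86, 0.29 ± 0.14 and 0.24 ± 0.24. FST stayed below 3 CPM in every library. It was at 2.06 and 0.926 CPM in coculture 1 and 2, and at 0.0475 to 0.361 CPM in the other coculture libraries. Controls held 0.146 to 0.346 CPM of FST. Without coculture 1 and 2 FST did not pass the filter on low counts, so no fold change is given for it there. In that setting FSTL1 was at 0.07 and CHRD turned to -0.08.

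All 26 SMADs and SMAD regulators outside the 10 genes were tested, and 0 passed the adjusted threshold or an unadjusted p under 0.05. Their median was -0.03. The partners of SMAD3 were near level: SMAD2 was at 64.1 ± 3.16 CPM in coculture and 64.9 ± 5.51 CPM in controls, and SMAD4 at 52.5 ± 2.23 CPM in coculture and 54.2 ± 4.28 CPM in controls. The ubiquitin ligase NEDD4L was at 0.35 ± 0.16, SMAD1 at 0.20 ± 0.11, the ubiquitin ligase RNF111 at -0.25 ± 0.14 and the coactivator CREBBP at -0.29 ± 0.19, or -0.11 without coculture 1 and 2. These were the 4 of lowest adjusted p in the list, between 0.531 and 0.673 with edgeR.

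Of 52 other genes that TGF-beta is known to induce, 39 could be tested, 1 was higher, 1 lower and 37 did not pass, beside 1.14% higher and 0.186% lower of all genes, with a median log2 fold change of 0.06. At an unadjusted p under 0.05 there were 7 higher and 4 lower, beside 6.07% and 3.58% of all genes. LTBP2, a matrix protein related to the latent TGF-beta binding proteins, was the lower gene. It was at 148 to 200 CPM in coculture, with a median of 166 CPM, against 227, 234, 217 and 212 CPM in controls. Every coculture library of LTBP2 lay below every control, and the log2 fold change was -0.42 ± 0.09 (edgeR adjusted p = 0.0459). The LTBP2 call was lost with the replicate block (adjusted p = 0.0689), and without coculture 1, 2, 3, 4 or 6 or any single control, at adjusted p-values up to 0.151. VCAN, the matrix proteoglycan versican, was at 90.8 ± 22.7 CPM in coculture and 151 ± 43.0 CPM in controls, a log2 fold change of -0.74 ± 0.21 (adjusted p = 0.169 with edgeR), which passed with the replicate block at -0.80 (adjusted p = 0.0422). JUNB, an AP-1 transcription factor, was at 33.3 ± 10.3 CPM in coculture and 19.6 ± 4.39 CPM in controls, a log2 fold change of 0.77 ± 0.22 (adjusted p = 0.172 with edgeR). Coculture 1 and 2 held the highest JUNB, at 43.2 and 49.4 CPM, and without them its log2 fold change was 0.44.

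Known reporters of TGF-beta signalling were named whatever their test. CCN2, listed under its older symbol CTGF, was at 169 ± 13.5 CPM in coculture and 146 ± 36.0 CPM in controls, a log2 fold change of 0.21 ± 0.15 (adjusted p = 0.680 with edgeR). SKIL, a SMAD corepressor, was at -0.08 ± 0.16, and at 0.07 without coculture 1 and 2. BAMBI, a decoy receptor, was at 0.22 ± 0.18. LDLRAD4, an inhibitor of SMAD phosphorylation, had 19 counts over the coculture libraries and 11 over the controls and was not tested. Of these, CCN2, SKIL and BAMBI did not pass in the fit with all libraries, nor did they share a direction.

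**Figure D4:**
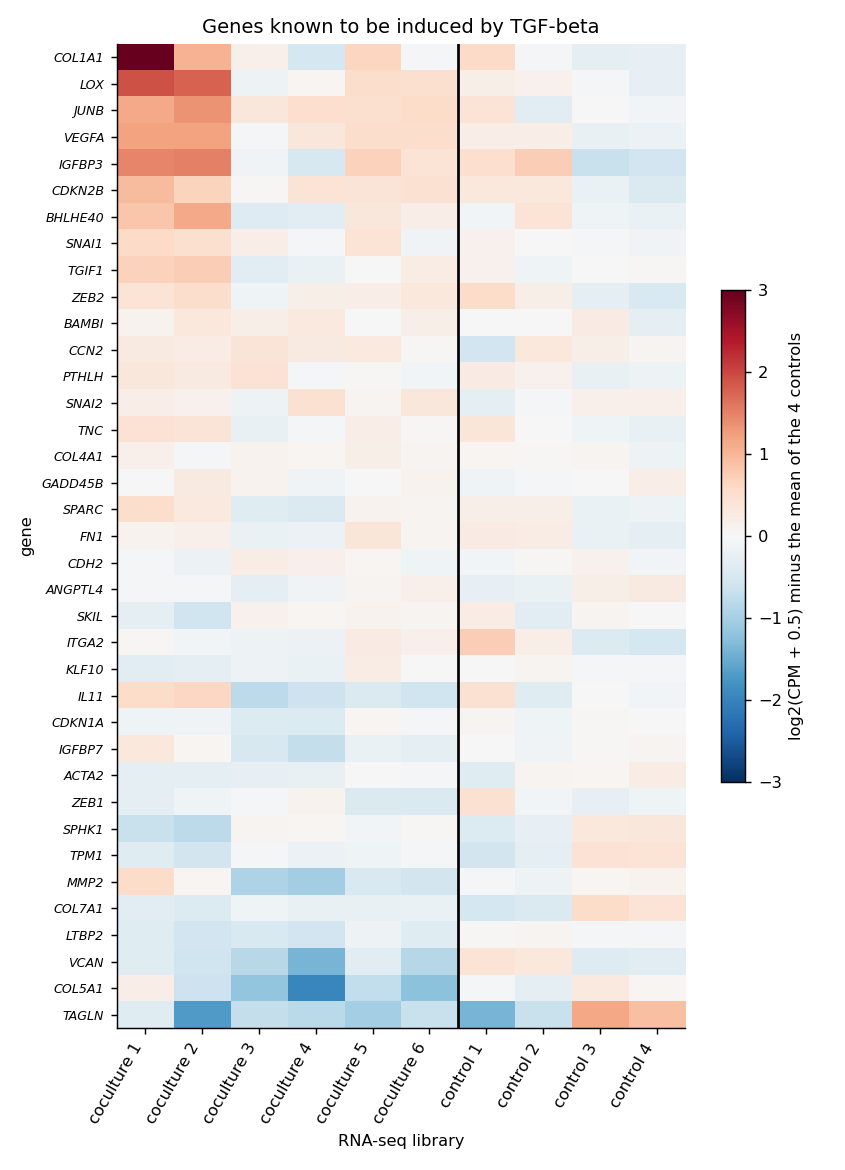
Level of 37 of the 39 tested genes known to be induced by TGF-beta in each RNA-seq library, coculture left of the black line and control right, as log2(CPM + 0.5) minus the mean of the 4 controls, with colours ending at 3 and -3. Rows run from the highest to the lowest fold change. The upper rows, such as LOX at 16.9 and 15.2 CPM, are darkest in coculture 1 and 2.

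Coculture 1 carried several matrix transcripts that the other libraries nearly lacked, and these induced targets were too sparse elsewhere to be tested. COL1A2, a chain of type I collagen, had 2214 of its 2232 coculture counts in coculture 1 and 2 counts over the controls. COL3A1, the type III collagen chain, had 341 of 343 there, and 3 over the controls. The elastin gene ELN had 476 of 490, TIMP3, an inhibitor of metalloproteinases, 230 of 232, and POSTN, the matrix protein periostin, 168 of 168, against 11, 0 and 0 counts over the controls. The fibroblast marker list holds COL3A1 and a further collagen itself, and its 5 other markers summed to 15.5 CPM in coculture 1, against 1.45 to 4.08 CPM in the other coculture libraries and 1.79 to 3.56 CPM in controls. The part of fibroblasts in these counts was not tested.

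With coculture 1 and 2 left out, 4 of the further genes were lower and 2 higher, named here after their values were seen. Over all genes, 112 were lower in that setting, against 29 with all libraries, so nothing particular to the list is read from these counts. The protease MMP2 was at -0.75 ± 0.13 (edgeR adjusted p = 0.00576), the collagen chain COL5A1 at -1.31 ± 0.23 (adjusted p = 0.00889 with edgeR) and the proteoglycan BGN at -1.73 ± 0.24 (adjusted p = 0.00159 with edgeR). LTBP2 was the fourth, at -0.40 (adjusted p = 0.0291 with edgeR), and NRROS remained among the higher genes. With all libraries, MMP2 was at 17.9 to 55.1 CPM in coculture and 33.8 to 40.3 CPM in controls, COL5A1 at 3.47 to 17.1 CPM in coculture and 12.2 to 18.3 CPM in controls, and BGN at 0.927 to 10.5 CPM in coculture and 2.67 to 4.72 CPM in controls. In each of the 3, coculture 1 was the highest coculture library.

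Genes that TGF-beta is known to repress did not pass the test in either direction. Of 8, 7 were tested and 0 passed, with 1 higher and 0 lower at an unadjusted p under 0.05 and a median of 0.15. ID3, an inhibitor of DNA binding by helix-loop-helix factors, was at 0.278 to 1.30 CPM in coculture and 0.128 to 0.243 CPM in controls. Its groups did not overlap, but on these low counts its log2 fold change of 1.99 ± 0.52 had an edgeR adjusted p of 0.119. MYC was at 342 ± 43.3 CPM in coculture and 283 ± 51.0 CPM in controls, a log2 fold change of 0.27 ± 0.13 (adjusted p = 0.546 with edgeR). ID2 was at -0.41 ± 0.21, or -0.22 without coculture 1 and 2, and the cell cycle phosphatase CDC25A at -0.24 ± 0.24, or 0.03 without coculture 1 and 2.

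Among miRNAs, 3 of the 5 members of the miR-200 family were higher in coculture. In epithelial cells this family is known to repress the transcription factors ZEB1 and ZEB2, which TGF-beta induces and which in turn repress the family. Its 5 members are shown because the called miRNAs of the list all belong to it. The mature sequences are from RefSeq (GRCh38.p14) and are the same as those deposited, with the seed, bases 2 to 8, in capitals.
hsa-miR-200b-3p: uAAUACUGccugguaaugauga
hsa-miR-429: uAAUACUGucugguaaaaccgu
hsa-miR-200c-3p: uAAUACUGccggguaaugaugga
hsa-miR-200a-3p: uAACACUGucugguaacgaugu
hsa-miR-141-3p: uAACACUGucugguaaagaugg
The first 3 share the seed AAUACUG and the other 2 the seed AACACUG. By position, miR-200b, miR-200a and miR-429 lie together on chromosome 1, at 1167160 to 1167181, 1167916 to 1167937 and 1169055 to 1169076, and miR-200c and miR-141 on chromosome 12, at 6963742 to 6963764 and 6964155 to 6964176, all on the plus strand. Members with the same seed are close in sequence, so the counts can be split between them.

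Of 29 listed miRNAs, 3 were higher, 0 lower and 26 did not pass, beside 1.13% higher and 0.125% lower of the 797 miRNAs tested. At an unadjusted p under 0.05, 6 were higher and 3 lower, miR-486-3p among the lower, beside 4.02% and 7.4% of all miRNAs. In coculture 4 of the 29 lay wholly above the controls and 1 wholly below, beside 1.88% and 1.38% of all miRNAs. The list had a median log2 fold change of 0.07, beside -0.05 over all miRNAs. The 3 were the chromosome 1 members. miR-200b-3p was at 9702 to 13829.8 CPM in coculture, with a median of 11872 CPM, against 7696, 6072, 4863 and 6078 CPM in controls, a log2 fold change of 0.94 ± 0.14 (edgeR adjusted p = 0.00298). miR-429 was at 1398 to 2087 CPM in coculture, with a median of 1684 CPM, against 1064, 891, 812 and 978 CPM in controls, a log2 fold change of 0.90 ± 0.14 (edgeR adjusted p = 0.00298). Both were above all controls in 6 of 6 coculture libraries, and both passed under all 17 alternatives. miR-200a-3p was at 4406 to 6410 CPM in coculture, with a median of 5955 CPM, against 3622, 3303, 3812 and 3875 CPM in controls, a log2 fold change of 0.64 ± 0.13 (edgeR adjusted p = 0.0241). It too was higher in 6 of 6, and its call was lost without coculture 1 and 2 together (adjusted p = 0.0780) and without coculture 3, 4 or 6 or control 1 or 2, at adjusted p-values up to 0.0788.

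The chromosome 12 members were much scarcer. miR-200c-3p was at 42.9 to 127 CPM in coculture, with a median of 46.9 CPM, against 41.3, 35.2, 19.1 and 25.7 CPM in controls, a log2 fold change of 1.01 ± 0.34 (edgeR adjusted p = 0.261). miR-141-3p was at 20.5 to 62.3 CPM in coculture, with a median of 25.8 CPM, against 14.0, 21.1, 12.5 and 12.2 CPM in controls, a log2 fold change of 1.09 ± 0.31 (edgeR adjusted p = 0.161). miR-141-3p passed with the replicate number as a block, at 1.23 (adjusted p = 0.00874 with edgeR), and also with DESeq2 and with no filter on low counts. Coculture 2 was the highest for both. Without coculture 1 and 2 their log2 fold changes were 0.58 and 0.69. Of the family's known targets, ZEB1 was at 46.2 ± 7.18 CPM in coculture and 53.8 ± 12.6 CPM in controls, a log2 fold change of -0.22 ± 0.15 (edgeR adjusted p = 0.684). ZEB2 was at 12.5 ± 1.97 CPM in coculture and 10.8 ± 3.62 CPM in controls, a log2 fold change of 0.22 ± 0.20 (edgeR adjusted p = 0.774). They are named outside the rule for naming genes, after their values were seen.

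**Figure D5:**
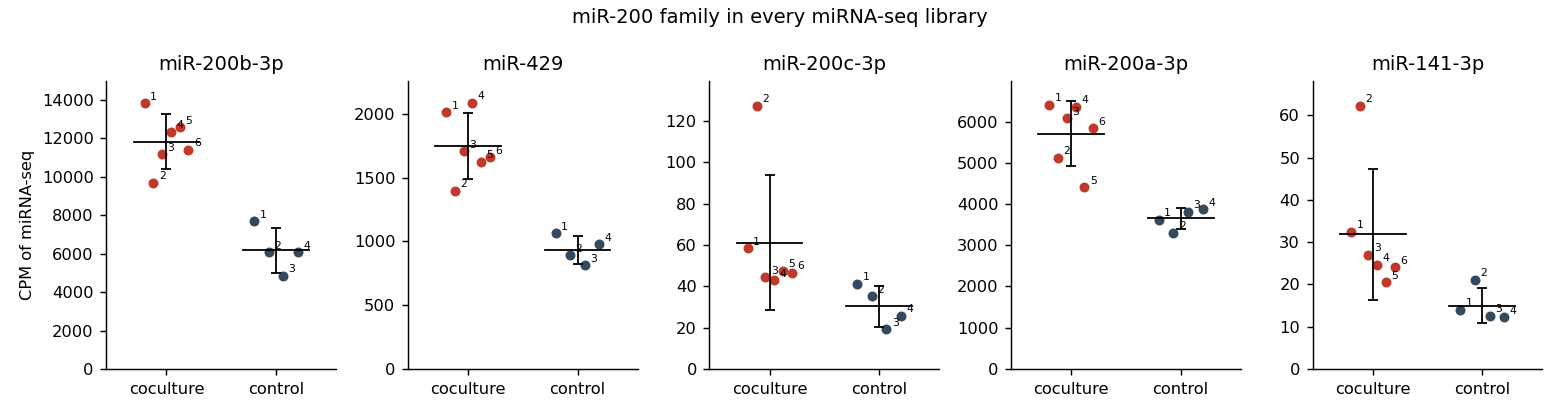
Level of the 5 miR-200 family members in every miRNA-seq library, in CPM on a linear axis from 0, coculture on the left and control on the right. Points are libraries with their replicate number, and bars are the mean and SD (n = 6 and 4). All 6 coculture libraries lie above all 4 controls for each member but miR-141-3p, whose coculture 5 lies below control 2.

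miR-486-3p, the miRNA named in the study's title, was at 32.8 to 84.8 CPM in coculture, with a median of 59.3 CPM, against 100.02, 98.8, 78.2 and 1034 CPM in controls. Only coculture 4 reached the control range. The log2 fold change was -2.53 ± 0.76 (edgeR adjusted p = 0.259), and -0.66 without control 4.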

How the data were processed

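The authors deposited raw read counts per gene symbol and per mature miRNA, whole numbers whose totals differ between libraries. The submitters' processing notes list the tools BWA and HISAT2 2.0.4 and the build GRCh38.p10, and give none a role. Which counting tool, annotation or strand setting was used is not given in the sources used here, so reads of antisense and overlapping genes cannot be separated. Groups were taken from the sample titles, and no column of values was left unmapped.

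Counts were fitted in R 4.3.3 with edgeR 4.0.16 (TMM scaling, filterByExpr, robust quasi-likelihood test, coculture minus control), separately for RNA-seq and miRNA-seq, with Benjamini-Hochberg adjustment over all features tested and a threshold of 0.05. CPM used TMM library sizes, and TPM the gene lengths in the deposited table. The members and lists were chosen with earlier results of these data known. The text names the 10 genes, the up to 4 genes of lowest adjusted p in each list, reporters of the pathway, the 3 genes nearest in profile to THBS1 and to PMEPA1, the 6 listed miRNAs of lowest adjusted p, and miR-486-3p, except for genes that are not reported here. CCN2 and CRIPTO were matched through older symbols. The 2 most alike libraries of a group still differed beyond counting noise (chi-square 6.86 per degree of freedom), so none was merged. A count of 0 allows up to 3 counts, or 0.0632 to 0.0758 CPM in RNA-seq, which covers counting error only. Alternatives were DESeq2 1.42.0, its size factors in edgeR, limma-voom 3.58.1, no filter, a replicate block, and leaving out libraries. The scripts were tested on simulated data.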

Additional observations from a re-analysis of the deposited data

Results flagged for a closer look

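Of 110 groups of libraries looked at for the named genes, 7 held 1 library far from the rest by Dixon's test at the 95% level, and chance alone flags about 1 in 20 such groups. For the growth factor GDF6, coculture 1 held 0.550 CPM and the other coculture libraries at most 0.217 CPM. For the BMP antagonist NOG, control 2 held 4.62 CPM and the other controls at most 2.73 CPM. For LDLRAD4, which inhibits SMAD phosphorylation, control 2 held 0.124 CPM, 5 counts, and the other controls at most 0.0485 CPM. For ZNF114, the gene nearest in profile to THBS1, control 1 held 25.5 CPM and the other controls at least 46.3 CPM. Coculture 2 held 62.3 CPM of miR-141-3p and 127 CPM of miR-200c-3p, while the other coculture libraries held at most 32.4 and 58.4 CPM. For miR-486-3p, control 4 held 1034 CPM and the other controls at most 100.02 CPM.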

How the results depend on the processing

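Of the log2 fold changes of the named genes and miRNAs outside the 10 genes under the alternatives, 682 kept their direction and side of the threshold, 12 passed it only there, 45 no longer passed and 4 turned. The 4 were CHRD (-0.083), CDC25A (0.030) and SKIL (0.069) without coculture 1 and 2, and SKIL (0.012) without coculture 2. Leaving out 1 library gave SKIL -0.173 to 0.012. This tally takes in the genes nearest in profile to THBS1 and PMEPA1, which were picked on these libraries. Of the 45, CABLES1 and KCNIP1 gave 7 each and PLPP4 and RHBDL3 gave 2 each, and nothing is read from these. Of 170 values of the 10 genes, which are given without a test, 1 turned, SMAD7 at 0.064 without coculture 1 and 2. THBS1 ranged from -1.996 to -1.40 and PMEPA1 from -1.04 to -0.83. DESeq2 called 333 genes higher and 106 lower, against 178 and 29 with edgeR, and of the further pathway genes 5 higher (NRROS, JUNB, ID3 and NOG among them) and 3 lower (LTBP2, VCAN and ENG). No filter left 1 higher pathway gene. Without coculture 1 and 2, 112 genes and 4 pathway genes were lower. Leaving out 1 library gave 112 to 204 genes higher, 4 to 36 lower, 1 to 2 pathway genes higher and 0 to 1 lower, 5 to 12 miRNAs higher, 0 to 1 lower and 2 to 3 listed miRNAs higher. The fewest lower genes, 4, came without control 4. For miRNAs, the 1 lower call became 0 with DESeq2's size factors, limma-voom or the replicate block and without coculture 1 and 2, 3 with DESeq2 and 4 with no filter. With the replicate block, 100 genes were higher, 10 lower and 1 pathway gene higher. In numbers 1 to 4, 95 genes were higher, 10 lower and 1 pathway gene higher, and 14 miRNAs were higher, 2 lower and 5 listed miRNAs higher. The labels do not say that the numbers pair libraries, and deviations of same-numbered RNA-seq libraries correlated at 0.41, -0.07, 0.31 and 0.22, and those of miRNA-seq libraries at 0.42, -0.07, 0.24 and 0.51, so no pairing is read from them, and not every library correlated best with its own number. The cause of these changes was not tested. Genes under about 1 CPM, such as ID3, GDF6 and FST, rest on few counts.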
